A study of Mus musculus with 4 samples.

Results

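The aminoacyl-tRNA synthetase genes were taken from the expression table by name, as 36 of its 18169 rows. They comprised 20 genes for cytosolic enzymes and 16 genes for mitochondrial enzymes, the latter with names that end in 2. All 36 genes passed the minimum mean of 1 TPM (transcripts scaled to a fixed total per sample) used for testing. The compartments are described separately throughout.

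An aminoacyl-tRNA synthetase joins an amino acid to its matching tRNA, and the ribosome can place only amino acids that have been joined in this way. Most amino acids have a cytosolic and a mitochondrial synthetase encoded by separate nuclear genes, whereas Kars and Gars each encode both forms, and several cytosolic enzymes are held together with scaffold proteins in the multisynthetase complex. Uncharged tRNA activates the kinase Gcn2, which acts through the transcription factor ATF4, and many cytosolic synthetase genes are among the known targets of ATF4.

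RNA was sequenced from primary neural stem/progenitor cells (NSCs) of C57BL/6 mice, with 2 samples from wild-type (+/+) mice and 2 samples from Chd5-/- mice, which lack the chromatin remodeler Chd5. Each culture was started from the periventricular region of the brain of a single newborn and kept in proliferation medium with epidermal growth factor and fibroblast growth factor 2, so the replicates are separate cultures. The culture protocol in the labels names postnatal day 1, whereas their age entries name days 1 and 2 for +/+ and days 3 and 4 for Chd5-/-. By those entries age goes with genotype and the effects of the 2 cannot be told apart. The question was how loss of Chd5 changes gene expression in undifferentiated NSCs.

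TPM of Chd5, the targeted gene, was 0.39 and 0.37 in +/+ and 0.06 and 0.04 in Chd5-/-, all under the minimum for testing. Which part of the gene the Chd5-/- mice lack is not given in the sources used here. Among stem cell markers, all 13 listed genes were detected, and their summed level was 10079.8 and 8392.06 TPM in +/+ and 4210.09 and 7140.76 TPM in Chd5-/-. Fabp7 was the largest part of that sum in every sample, at 5891.59 and 4315.73 TPM in +/+ and 1938.77 and 3822.43 TPM in Chd5-/-. By gene, 5 of the 13 were below without overlap, 2 above and 6 overlapping, against 13.0% below and 46.3% above of all rows tested. Summed astrocyte markers ranged from 514 to 1109 TPM, and Map2, which made up nearly all of the neuronal marker sum, from 366 to 785 TPM. Of the 4 neuronal markers tested, 1 was above without overlap (Syt1), 1 below (Elavl3) and 2 overlapped, against those same shares of all rows. Syt1 reached the minimum of 1 TPM only through Chd5-/-. Of all 8 neuronal markers, tested or not, 4 were above and 1 below. Oligodendrocyte markers summed to 47.6 to 62.4 TPM except for 357 TPM in Chd5-/- replicate 2, while microglial and endothelial markers stayed at or below 0.77 TPM. Summed mesenchymal markers were at 12.23 TPM in Chd5-/- replicate 1 and at or below 0.17 TPM in the others. How far these shifts bear on the synthetase values was not tested. TPM carries no read numbers, so sequencing depth is unknown, and 2 samples against 2 allow no exact permutation p below 0.33.

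In +/+ NSCs the cytosolic synthetase genes spanned a wide range of levels per transcript length. Dars, which charges aspartate tRNA, was the highest at 257 ± 39.4 TPM (mean ± SD, n = 2 here and below), and Vars, which charges valine tRNA, was the lowest at 4.77 ± 1.29 TPM. The median cytosolic gene stood at 40.3 TPM. After Dars came Nars for asparagine at 130.0 ± 2.84 TPM, Gars for glycine at 118 ± 6.75 TPM and Eprs, a single protein that charges both glutamate and proline tRNA, at 115 ± 5.66 TPM. Gars and Eprs overlapped in range and were not separated. Of the 19 pairs of neighbours in this order, 8 overlapped, and the genes from Aars to Qars formed a run of 6 whose neighbouring ranges all overlapped, with means from 26.2 to 29.2 TPM. Farsa and Farsb encode the subunits of a single phenylalanine enzyme, yet Farsb stood at 79.5 ± 3.17 TPM and Farsa at 8.74 ± 1.94 TPM.

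In +/+ NSCs the mitochondrial genes stood lower in the main, with Lars2 the clear exception. Lars2, which charges mitochondrial leucine tRNA, stood at 714 ± 248 TPM, above every cytosolic synthetase. The next, Iars2 for isoleucine, stood at 65.4 ± 1.74 TPM, the median mitochondrial gene at 9.18 TPM, and the lowest, Sars2 for serine, at 0.645 ± 0.332 TPM. Of 15 neighbouring pairs, 5 overlapped.

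**Figure D1:**
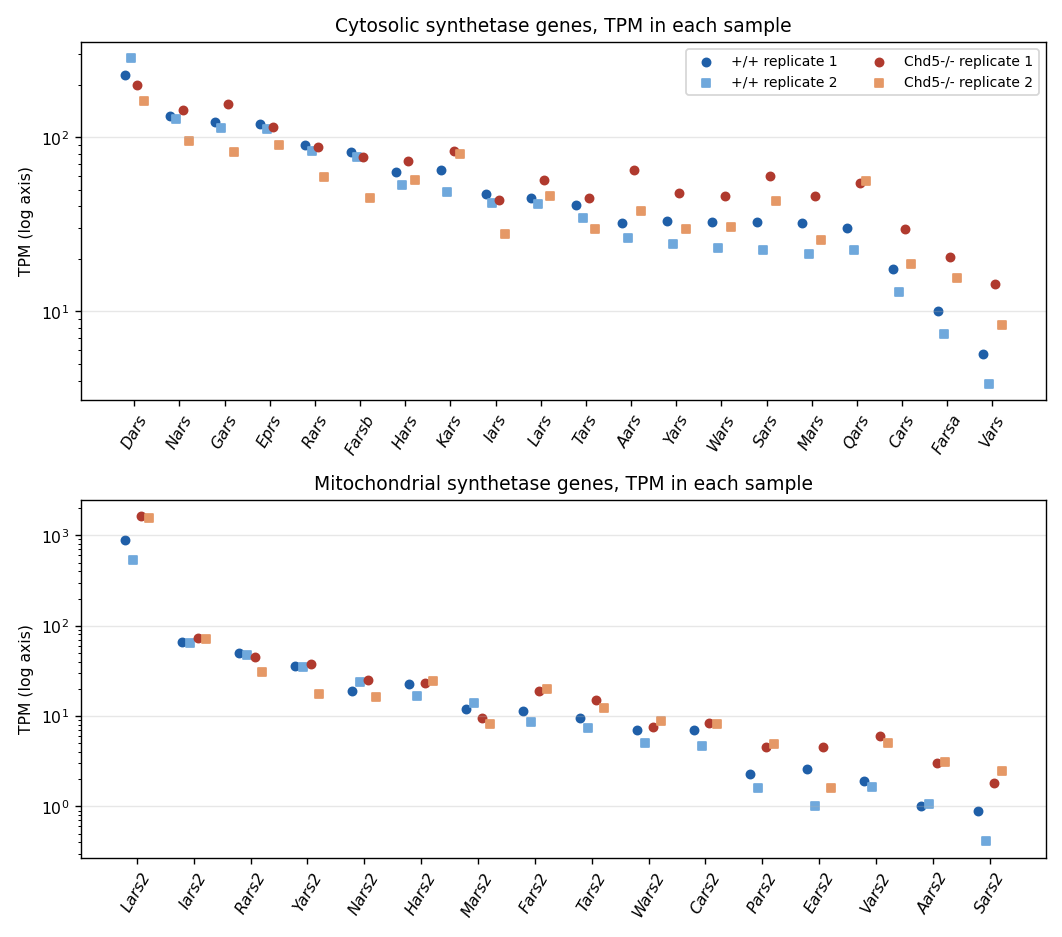
TPM (log axis) of each synthetase gene in each of the 4 samples, with cytosolic genes above and mitochondrial genes below, ordered by the +/+ mean. Circles are replicate 1 and squares replicate 2 of each genotype. Lars2 lies between 538.60 and 1643.16 TPM, far above all other mitochondrial genes, and the Chd5-/- points of the low genes on the right lie mostly above the +/+ points. The order uses the +/+ values, which also enter the difference between genotypes.

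The cytosolic genes did not move as a block between genotypes. Both Chd5-/- samples were above both +/+ samples for 8 of the 20 genes, against 46.3% of all 12576 rows tested, and below them for 1, against 13.0% of all rows. The other 11 overlapped. The 8 genes higher in Chd5-/- were Qars, Farsa, Sars, Vars, Aars, Cars, Kars and Lars, most of them of middle or low +/+ level. Dars, the most abundant, was the one below. The Spearman correlation of the log2 fold change with the +/+ level was -0.85 over the cytosolic genes, against -0.50 over all rows with an annotated transcript. Because the +/+ values enter both sides, a negative relation arises in part by construction. The median log2 fold change of the 20 genes, on the scale of log2(TPM + 1) as throughout, was 0.31, close to the 0.34 of all rows, and 10 of the 20 lay above the latter. In whole cultures, a change in the share of a cell type and a change of RNA per cell cannot be told apart.

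By limma with Benjamini-Hochberg adjustment over all rows, none of the 20 cytosolic genes passed an adjusted p of 0.05 (0.0318% of all rows passed upwards and 0.0239% downwards). At an unadjusted p under 0.05, 4 were higher in Chd5-/- (21.9% of all rows) and 0 were lower (2.27% of all rows). The count of 4 became 2 without +/+ replicate 1 (12% of all rows), 0 without +/+ replicate 2 (5.75%), 1 without Chd5-/- replicate 1 (27.8%) and 8 without Chd5-/- replicate 2 (25.9%). Without Chd5-/- replicate 1, 5 genes were lower, against 7.5% of all rows.

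Qars, the glutamine enzyme, had the smallest p of the cytosolic genes. Its TPM was 29.97 and 22.40 in +/+ and 54.26 and 56.19 in Chd5-/-. Both Chd5-/- values lay close together and well above the +/+ values, a log2 fold change of 1.06 ± 0.25 (SE) with an adjusted p of 0.122 by limma. Qars lies on chromosome 9 from 108507706 to 108515941 on the plus strand (GRCm38, as are the coordinates that follow). Farsa gave 10.11 and 7.37 TPM in +/+ against 20.44 and 15.51 TPM in Chd5-/-, without overlap, a log2 fold change of 0.96 ± 0.30 and an adjusted p of 0.157 by limma. Sars, the serine enzyme, gave 32.71 and 22.44 TPM against 59.87 and 43.22 TPM, again without overlap, with a log2 fold change of 0.88 ± 0.30. All of these kept a positive sign under 4 other scalings, namely rescaling with the 20 most abundant rows set aside, quantile normalization, median-of-ratios scaling and removal of trends on GC content and transcript length.

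Vars had the largest log2 fold change of the cytosolic genes, 1.08 ± 0.37, from 5.68 and 3.85 TPM in +/+ to 14.32 and 8.39 TPM in Chd5-/-. The Chd5-/- samples differed from each other by more than the gap to +/+, and the Vars difference was 0.04 once GC and length trends were taken out. Aars, the alanine enzyme, gave 32.14 and 26.33 TPM against 64.64 and 37.69 TPM, and Cars, the cysteine enzyme, 17.51 and 12.89 TPM against 29.86 and 18.78 TPM. Their log2 fold changes of 0.74 and 0.62 turned to -0.03 and -0.06 when GC and length trends were removed. Kars, the lysine enzyme of both compartments, was at 65.06 and 48.28 TPM in +/+ and 82.93 and 79.90 TPM in Chd5-/-, a log2 fold change of 0.53 that stayed positive under all scalings. Lars, the cytosolic leucine enzyme, was at 44.48 and 41.08 TPM against 56.51 and 45.94 TPM. Its log2 fold change of 0.25 became -0.12 under median-of-ratios scaling.

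At the other end, Dars on chromosome 1 (128363707 to 128417368, minus strand) gave 228.81 and 284.52 TPM in +/+ and 200.48 and 162.00 TPM in Chd5-/-. Every +/+ value exceeded every Chd5-/- value, with a log2 fold change of -0.50 ± 0.25 and an adjusted p of 0.278 by limma. Farsb, Iars, Rars, Eprs, Nars, Gars and Tars also had negative differences, from -0.42 to -0.04, which kept their sign under all 4 scalings, but their genotypes overlapped. In each of these 7 genes Chd5-/- replicate 2 was the lowest of the 4 samples. The Chd5-/- samples were farthest apart in Gars, with 122.54 and 112.99 TPM in +/+ against 154.47 and 82.11 TPM in Chd5-/-. Hars for histidine, Mars for methionine, Yars for tyrosine and Wars for tryptophan had positive differences from 0.14 to 0.43 with overlapping samples, which turned negative once GC and length trends were taken out and, for Hars, under each of the other scalings too.

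**Figure D2:**
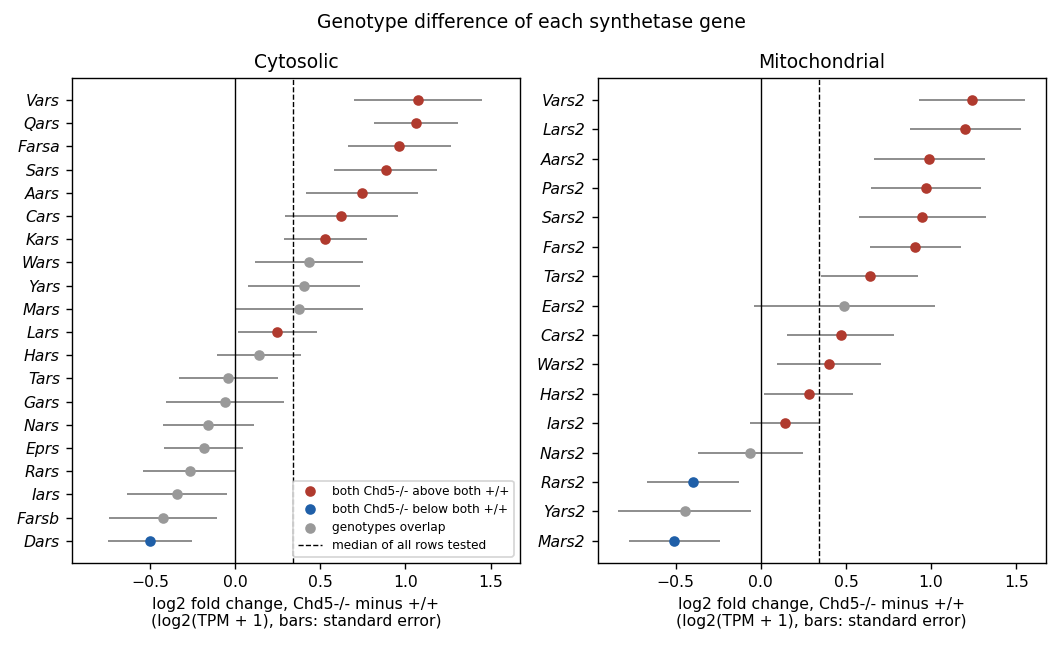
Log2 fold change of each synthetase gene on the log2(TPM + 1) scale, Chd5-/- minus +/+, with the standard error from limma as bars. Red points mark genes with both Chd5-/- samples above both +/+ samples (8 cytosolic, 11 mitochondrial), blue points the reverse (1 and 2), grey points overlap, and the dashed line is the median of all rows tested, 0.34.

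Groups within the cytosolic set had unequal medians as deposited. For the 8 enzymes of the multisynthetase complex the median log2 fold change was 0.03, with 3 above, 1 below and 4 overlapping, against 0.42 for the 12 other cytosolic genes, with 5 above, 0 below and 7 overlapping. Of all rows, 46.3% were above and 13.0% below. Synthetases fall into 2 unrelated structural classes. The 9 cytosolic class I genes had a median of 0.41 and the 10 class II genes 0.05, Eprs being left out because it holds an enzyme of each class. With GC and length trends taken out the medians were -0.26 for the complex and -0.22 for the others, and -0.23 for class I and -0.28 for class II. These differences between groups were not tested.

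Among the mitochondrial genes, too, most had a positive difference as deposited. Both Chd5-/- samples exceeded both +/+ samples for 11 of the 16 genes (46.3% of all rows), both were below for Mars2 and Rars2 (13.0% of all rows), and Yars2, Nars2 and Ears2 overlapped. The 11 became 6, 7 and 4 after quantile normalization, median-of-ratios scaling and removal of GC and length trends. The shares of all rows under these scalings are not given here, so a shift of the whole table cannot be set apart. The median log2 fold change was 0.48 and 10 of the 16 lay above the 0.34 of all rows. The 7 class II genes had a median of 0.91 and the 9 class I genes 0.40, but with GC and length trends taken out these were 0.02 and 0.06. Sars2 reached the minimum of 1 TPM only through its Chd5-/- samples and so had to differ. Without it, 10 of 15 genes were above and 2 below, with a median of 0.47.

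None of the 16 genes passed an adjusted p of 0.05 by limma, and 6 were higher (21.9% of all rows) and 0 lower (2.27% of all rows) at an unadjusted p under 0.05, or 5 of 15 higher with Sars2 set aside. The count of 6 became 1 without +/+ replicate 1 (12% of all rows) and 0 without +/+ replicate 2 (5.75%), and stayed at 6 without Chd5-/- replicate 1 (27.8%) or Chd5-/- replicate 2 (25.9%). Without Chd5-/- replicate 1, 2 genes were lower, against 7.5% of all rows. The median became 0.76 without +/+ replicate 1 and 0.21 without +/+ replicate 2. Whether the compartments differ in their response to genotype was not tested.

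Vars2, the mitochondrial valine enzyme on chromosome 17 (35655634 to 35667592, minus strand), had the largest difference of all 36 genes. It gave 1.92 and 1.63 TPM in +/+ and 6.05 and 5.08 TPM in Chd5-/-, so that the genotypes were well apart at a low level. The log2 fold change was 1.24 ± 0.31 with an adjusted p of 0.129 by limma, and 0.31 with GC and length trends removed. Fars2, the phenylalanine enzyme, gave 11.27 and 8.67 TPM against 19.01 and 19.87 TPM, with a log2 fold change of 0.91 ± 0.27. Both stayed positive under all 4 scalings.

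Aars2, Pars2 and Sars2, which charge mitochondrial alanine, proline and serine tRNA, were all near or under 5 TPM. Aars2 was at 1.00 and 1.07 TPM in +/+ and 3.02 and 3.06 TPM in Chd5-/-, with tight replicates and no overlap. Pars2 was at 2.27 and 1.59 TPM against 4.54 and 4.87 TPM, and Sars2 at 0.88 and 0.41 TPM against 1.83 and 2.49 TPM. Their log2 fold changes were 0.99, 0.97 and 0.95 on the log2(TPM + 1) scale, which understates changes at such levels, where the ratios of mean TPM were 2.94, 2.44 and 3.35. With GC and length trends removed Pars2 remained at 0.42, whereas Aars2 and Sars2 turned to -0.03 and -0.11.

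Tars2 for threonine, at 9.47 and 7.32 TPM in +/+ and 14.86 and 12.31 TPM in Chd5-/-, had a difference of 0.64 that was positive under all scalings. Cars2, Wars2, Hars2 and Iars2 were also without overlap, at differences from 0.14 to 0.47, but each of these changed sign under at least 1 other scaling. Iars2 was the steadiest of the abundant mitochondrial genes, at 66.58 and 64.12 TPM in +/+ against 73.31 and 71.02 TPM in Chd5-/-. Ears2 for glutamate varied as much within as between genotypes, at 2.59 and 1.01 TPM against 4.51 and 1.58 TPM.

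Mars2, the mitochondrial methionine enzyme, was at 12.02 and 13.95 TPM in +/+ and 9.50 and 8.16 TPM in Chd5-/-, and Rars2, the arginine enzyme, at 50.02 and 47.60 TPM against 44.47 and 30.42 TPM. Both were lower in Chd5-/- without overlap, by -0.51 ± 0.27 and -0.40 ± 0.27 on the log2 scale, and stayed negative under all scalings. Yars2 for tyrosine had 36.12 and 34.82 TPM against 37.44 and 17.59 TPM, so that of the Chd5-/- samples replicate 2 alone lay below +/+, and the difference was -0.45. Nars2 for asparagine differed by -0.06.

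Lars2 dominated the mitochondrial total. It was at 888.71 and 538.60 TPM in +/+ and 1643.16 and 1543.01 TPM in Chd5-/-, without overlap, with a log2 fold change of 1.20 ± 0.33 and an adjusted p of 0.135 by limma, and its difference stayed positive under all scalings (0.71 with GC and length trends removed). The summed TPM of the 16 genes was 1138.21 and 771.04 in +/+ and 1925.89 and 1777.22 in Chd5-/-, a ratio of means of 1.94. Without Lars2 the sums were 249.5 and 232.44 TPM against 282.73 and 234.21 TPM, a ratio of 1.07. The cytosolic sum was 1260.81 and 1180.41 TPM in +/+ and 1460.18 and 1037.8 TPM in Chd5-/-, a ratio of 1.02 with the +/+ values inside the Chd5-/- range.

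Lars2 lies on chromosome 9 from 123366927 to 123462666 on the plus strand. Its longest annotated transcript has 3894 bases in 21 exons, with coding sequence from base 200 to base 2908. In the 3′ UTR, bases 3278 to 3349 match the transcript of Gm15564 at 98.6% over 72 bases, and bases 3233 to 3329 match that of AA474408 at 94.8% over 97 bases. Neither of these has a row in the table, and the reads behind the Lars2 value cannot be placed along the gene from TPM. Rn45s, the row of the ribosomal RNA precursor gene, chosen after its values were seen, was at 452.42 and 332.39 TPM in +/+. It was at 751.38 and 907.64 TPM in Chd5-/-, a log2 fold change of 1.09. TPM does not show whether the reads of this row come from the precursor or from mature rRNA, so the value is no measure of the precursor. Whether rRNA reads contribute to the Lars2 value was not tested.

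Ratios of synthetase genes within a sample do not depend on a scaling factor per sample. The Farsb to Farsa ratio was 8.08 and 10.5 in +/+ and 3.79 and 2.89 in Chd5-/-, so the subunits stood closer in level in Chd5-/- without overlap, at 0.359 of the +/+ mean. Of the 13 amino acids with a gene in each compartment, the mitochondrial to cytosolic ratio was above the +/+ samples in both Chd5-/- samples for 5 (alanine, isoleucine, leucine, serine and threonine), below for 3 (methionine, arginine and tyrosine) and overlapping for 5. Lars2 to Lars was 20.0 and 13.1 in +/+ against 29.1 and 33.6 in Chd5-/-. Yars2 to Yars ran the other way, from 1.09 and 1.44 to 0.779 and 0.591. These ratios have no test beyond the separation of 2 samples from 2.

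**Figure D3:**
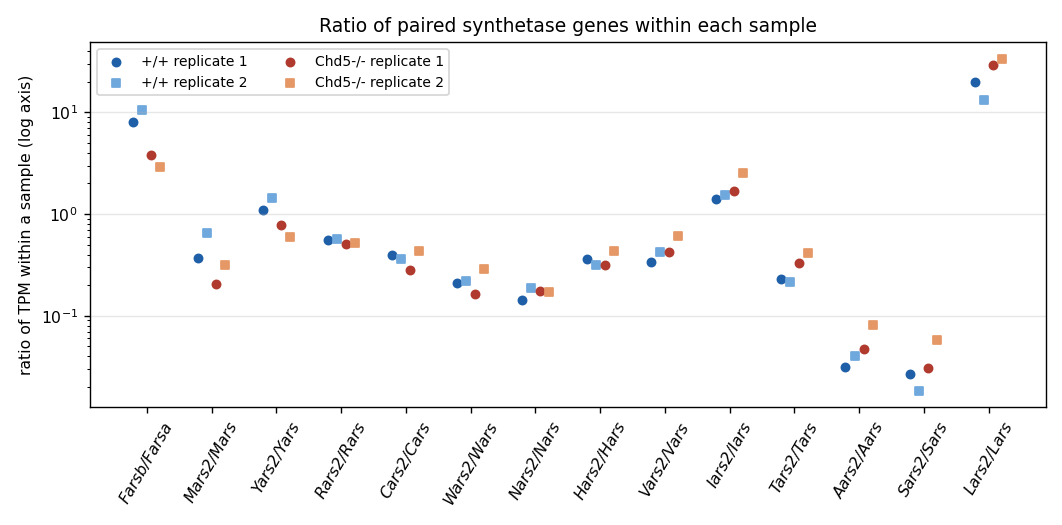
Ratio of TPM of paired synthetase genes within each sample (log axis), ordered by the ratio of genotype means. Circles are replicate 1 and squares replicate 2, with +/+ in blue and Chd5-/- in red and orange. Farsb/Farsa on the left is at 8.08 and 10.5 in +/+ and at 3.79 and 2.89 in Chd5-/-, and Lars2/Lars on the right is the highest ratio in every sample.

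The replicates of a genotype differed in a common direction in the cytosolic set. Chd5-/- replicate 1 was above Chd5-/- replicate 2 in 19 of the 20 cytosolic genes, all but Qars, with a median log2 difference of 0.57, while 49.8% of all rows had that direction. Between the +/+ samples, replicate 1 was the higher in 19 of the 20, all but Dars, with a median difference of 0.26, against 65.9% of all rows. Of the mitochondrial genes, 10 of 16 were higher in Chd5-/- replicate 1 at a median of 0.08, and 13 of 16 were higher in +/+ replicate 1 at a median of 0.33. Without Chd5-/- replicate 1 the cytosolic median was 0.02, compared with 0.48 when Chd5-/- replicate 2 was left out. Across the 36 genes, the rank correlation was 0.989 between the +/+ samples and 0.980 between the Chd5-/- samples, and 0.929 to 0.948 between samples of different genotype. Over all rows it was 0.974 between the +/+ samples but 0.904 between the Chd5-/- samples, no higher than the 0.904 to 0.925 between samples of different genotype.

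The genotype difference went with GC content across the synthetase genes. The Spearman correlation of the log2 fold change with the GC content of the longest annotated transcript was 0.77 over the 20 cytosolic genes, 0.92 over the 16 mitochondrial genes and 0.60 over the 11700 rows tested that had an annotated transcript. These are descriptions across genes that share 4 libraries. Of the 10 cytosolic genes with at least 50% GC, 9 had a positive difference, with a median of 0.53, and of the 10 below that, 3 were positive, with a median of -0.17. The corresponding mitochondrial genes were positive in 8 of 8, with a median of 0.96, and in 4 of 8, with a median of 0.04. Of all rows, 90.4% and 53.7% were positive in these GC classes, with medians of 0.76 and 0.05. Vars at 60.9% and Dars at 41.2% GC bounded the cytosolic range, and Sars2 at 60.1% and Mars2 at 38.8% the mitochondrial range. GC content also went with the difference between the +/+ samples in the cytosolic genes, at a correlation of 0.80, against 0.40 in the mitochondrial genes and 0.34 over all rows. For the difference between the Chd5-/- samples the correlations were 0.40, -0.44 and -0.04 in the same order. The part of GC in the genotype differences was not tested.

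**Figure D4:**
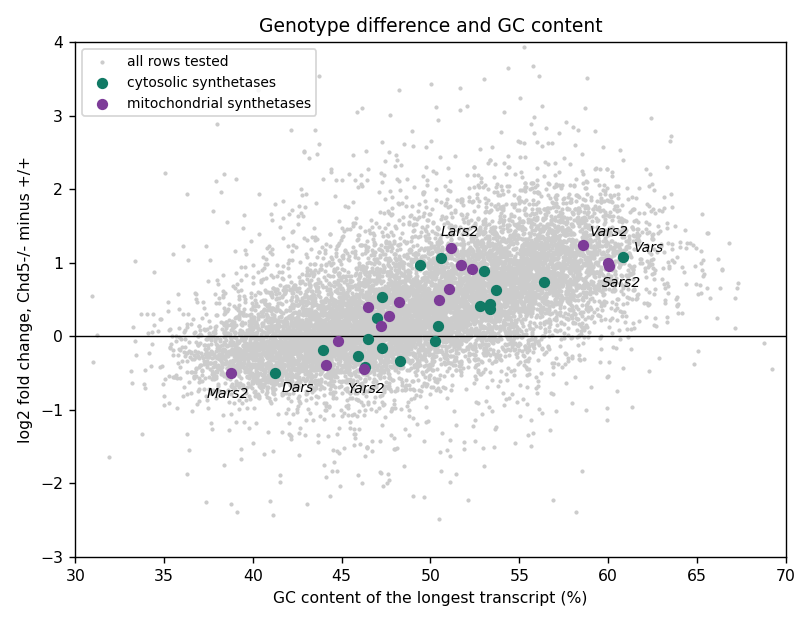
Log2 fold change, Chd5-/- minus +/+, against the GC content (%) of the longest transcript, with all rows tested in grey, cytosolic synthetases in green and mitochondrial synthetases in purple. Synthetase genes of high GC content such as Vars2 and Vars lie at the upper right, and Mars2 and Dars at the lower left, within the cloud of all rows, of which those beyond the vertical range are not drawn.

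The scaling of the samples set the sign for many of the synthetase genes. The 20 most abundant rows held 32.4% and 35.6% of all TPM in +/+ and 21.6% and 22.8% in Chd5-/-, so the remaining rows shared a larger part of the fixed total in Chd5-/-. The median of all rows was 0.34 as deposited, 0.13 with those rows set aside, 0.01 after median-of-ratios scaling and -0.05 after quantile normalization. Over all rows, 2748 were higher and 285 lower at an unadjusted p under 0.05 as deposited, against 1508 and 1311 after median-of-ratios scaling. The cytosolic median became 0.08, -0.05 and 0.06 under these scalings, and the mitochondrial median 0.32, 0.20 and -0.03. Removal of GC and length trends brought them to -0.23 and 0.04. Of 12 cytosolic genes with a positive difference as deposited, Kars, Sars, Farsa, Qars and Vars kept the sign under all 4 scalings, and all 8 with a negative difference did. Of the mitochondrial genes, Tars2, Fars2, Pars2, Lars2 and Vars2 of the 12 positive and all 4 of the negative did.

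**Figure D5:**
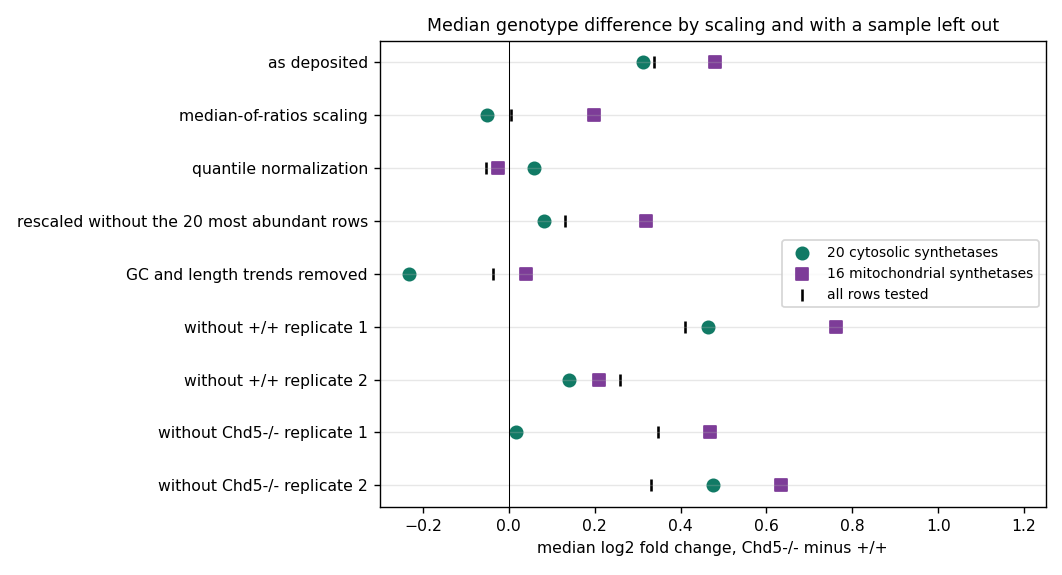
Median log2 fold change, Chd5-/- minus +/+, of the cytosolic (green circles) and mitochondrial (purple squares) synthetase genes and of all rows tested (black ticks), under each scaling and with a sample left out. The cytosolic median lies between -0.23 and 0.48 and the mitochondrial median between -0.03 and 0.76.

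Some member values may include reads of neighbouring genes. Libraries were stranded, but whether the counting used strand is not given in the sources used here. Longest transcripts share identical sequence with a gene nearby for Aars with Exosc6 over 1326 bases, for Iars2 with Rab3gap2 over 2034 bases and for Farsb with Sgpp2 over 250 bases. Iars matches its processed pseudogene Gm4849 at 96.0% over 1656 bases. Mars overlaps Ddit3, an ATF4-linked stress gene on the opposite strand, which was at 9.14 and 6.38 TPM in +/+ and 26.38 and 13.61 TPM in Chd5-/-. Several members lie head to head with a neighbour, among them Hars with Hars2, whose annotated starts are 197 bases apart.

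Around the synthetases, the scaffold and related enzymes moved in both directions. Of 19 genes tested, 9 were above without overlap and 3 below, against 46.3% and 13.0% of all rows, and 7 overlapped, with a median of 0.33. At an unadjusted p under 0.05 by limma, 2 were higher and 1 lower, against 21.9% and 2.27% of all rows. Eef1e1, a scaffold protein of the multisynthetase complex, was at 120.56 and 131.63 TPM in +/+ and 87.42 and 47.36 TPM in Chd5-/-, a log2 fold change of -0.96 that stayed negative under all scalings. Aimp1, another scaffold protein of the same complex, was at 78.86 and 55.08 TPM against 106.92 and 117.37 TPM, at 0.76 and positive under all scalings. Tarsl2, a second cytosolic threonine enzyme, differed by -0.46 and stayed negative under all scalings. None passed an adjusted p of 0.05, which held for every gene of the pathway lists that follow.

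The elongation factors that carry charged tRNA to the ribosome or recycle their carrier had a median of 1.10 over 7 genes, with 5 above and 0 below (against 46.3% and 13.0% of all rows) and 3 higher and 0 lower at an unadjusted p under 0.05 by limma (against 21.9% and 2.27% of all rows). Eef1a2 reached the minimum of 1 TPM only through Chd5-/-, and without it the median was 0.78 over 6 genes, with 4 above. Eef1d, an exchange factor subunit, was at 36.57 and 23.06 TPM in +/+ and 79.47 and 85.21 TPM in Chd5-/-, a difference of 1.47. Eef1a1, the main carrier, gave 18885.5 and 15829.1 TPM against 16500.5 and 16976.8 TPM, with overlap, and its difference of -0.05 was 0.38 after quantile normalization. Eef1a2, its form in neurons and muscle, was at 0.2 and 0.24 TPM against 14.27 and 0.42 TPM, so its difference of 1.93 rested on Chd5-/- replicate 1. Tsfm, the mitochondrial exchange factor, differed by 0.17, with a negative sign under all 4 other scalings.

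Genes of tRNA processing and export had a median of 0.13 over 28 genes tested, with 11 above and 6 below (against 46.3% and 13.0% of all rows) and 11 overlapping. At an unadjusted p under 0.05 by limma, 7 were higher and 1 lower, against 21.9% and 2.27% of all rows. The RNase P subunits Pop7 and Pop5 had the largest positive differences, 1.16 and 1.14, with Pop7 at 3.52 and 2.39 TPM in +/+ against 9.87 and 6.02 TPM in Chd5-/-. Ssb, which binds the ends of new tRNA, was at 351.41 and 377.4 TPM in +/+ and 252.33 and 185.16 TPM in Chd5-/-, a difference of -0.75. Trmt10c, a subunit of mitochondrial RNase P, differed by -0.78. Each of these 4 kept its sign under all scalings.

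The ATF4 targets of the amino acid response had a median of 0.76 over 30 genes, with 17 above and 1 below (against 46.3% and 13.0% of all rows) and 12 overlapping. Trib3 reached the minimum of 1 TPM only through Chd5-/-, and without it 16 of 29 genes were above and 1 below, with a median of 0.755. At an unadjusted p under 0.05 by limma, 7 were higher and 0 lower, against 21.9% and 2.27% of all rows. That median was -0.0060 once GC and length trends were taken out, and 0.28 with Chd5-/- replicate 1 left out. Phgdh, the entry enzyme of serine synthesis, was at 23.96 and 14.14 TPM in +/+ and 44.66 and 80.16 TPM in Chd5-/-, a difference of 1.65, and Sesn2, a stress-induced sensor, was at 6.02 and 4.85 TPM against 23.37 and 12.57 TPM, both differences being positive under all scalings. Asns, the asparagine synthetase, went the other way at 78.08 and 75.81 TPM against 70.42 and 37.42 TPM, a difference of -0.57 that was negative under all scalings. Atf4 itself was at 90.46 and 77.67 TPM in +/+ and 92.91 and 62.17 TPM in Chd5-/-, with overlap and a difference of -0.14 that was negative under all scalings. As with the cytosolic synthetases, Chd5-/- replicate 1 exceeded Chd5-/- replicate 2 in 22 of these 30 genes, by a median of 0.71.

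Genes of the amino acid sensing kinases and the eIF2 alpha pathway had a median of -0.10 over 11 genes, with 4 above and 4 below (against 46.3% and 13.0% of all rows), and 1 higher and 0 lower at an unadjusted p under 0.05 by limma (against 21.9% and 2.27% of all rows). Eif2s1 and Eif2s2, which encode eIF2 subunits, differed by -0.58 and -0.40, and Ppp1r15a, a phosphatase subunit that reverses eIF2 phosphorylation, by 1.28, all with the same sign under each scaling. Gcn1l1, an activator of Gcn2, differed by 0.68 and by -0.20 with GC and length trends removed. Amino acid transporters had a median of 0.49 over 16 genes tested, with 8 above and 0 below, and 2 higher and 0 lower at the same threshold, against those same shares of all rows. Slc38a2, a neutral amino acid carrier, was at 69.51 and 47.2 TPM in +/+ and 145.44 and 111.16 TPM in Chd5-/-, a difference of 1.14, and Slc1a5, a glutamine carrier, differed by 1.18, both positive under all scalings. Slc7a1 and Slc7a3, carriers of basic amino acids, differed by -0.33 and -0.04 with overlap.

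The promoters were searched for the amino acid response element TGATGNAAN, the site through which ATF4 acts, on both strands of the 250 bases before the annotated start (RefSeq, GRCm38.p6). Promoters were given for 12 cytosolic and 14 mitochondrial members, and the element was found in 3 of the 12 and 0 of the 14, against 3.89% of 27025 genes and 7 of 27 ATF4 targets. The 3 genes were Gars, Aars and Tars, and all had the element on the reverse strand. The Aars window (chr8:111033592-111033841) lies inside the gene as annotated in GENCODE M21, which begins at 111033144. Of its 250 bases 202 are exonic, against 0 for Gars and 7 for Tars. A match of any motif counted for Aars may therefore lie in transcribed sequence. The sequences of Gars and Tars are shown because each holds a match to the response element. Whether the element acts in these cells was not tested. The 250 bases before Gars (chr6:55037751-55038000, plus strand) and Tars (chr15:11399659-11399908, minus strand) are given 5′ to 3′ with the element in capitals.
Gars: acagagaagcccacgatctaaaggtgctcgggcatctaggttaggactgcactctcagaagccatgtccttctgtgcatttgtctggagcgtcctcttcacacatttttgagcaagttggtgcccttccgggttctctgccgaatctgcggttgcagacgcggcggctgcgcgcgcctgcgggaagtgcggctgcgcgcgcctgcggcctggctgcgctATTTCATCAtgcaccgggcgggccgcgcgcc
Tars: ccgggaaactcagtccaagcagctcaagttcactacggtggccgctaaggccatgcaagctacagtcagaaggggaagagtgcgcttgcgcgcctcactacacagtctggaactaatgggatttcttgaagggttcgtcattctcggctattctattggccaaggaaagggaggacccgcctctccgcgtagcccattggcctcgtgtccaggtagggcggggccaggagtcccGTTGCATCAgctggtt

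The element ended 23 bases before the start in Gars and 8 bases before it in Tars. The 3 genes with the element did not share a direction, with log2 fold changes of -0.06 for Gars, -0.04 for Tars and 0.74 for Aars, the last turning to -0.03 with GC and length trends removed. In all of them Chd5-/- replicate 1 was the highest of the 4 samples. The E-box CACGTG was found in 3 of 12 cytosolic promoters (Aars, Farsb and Iars) and 0 of 14 mitochondrial ones, against 6.86% of all genes. The CCAAT box was in 6 of 12 and 5 of 14 (37.5% of all genes), TTCCGG in 4 of 12 and 6 of 14 (13.6%) and GGAAGC in 4 of 12 and 5 of 14 (24.4%). The motif TGACGTCA was in none of these promoters and in 1.77% of all genes. None of these 6 motifs contains another. A match describes the letters of the window only.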

How the data were processed

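The authors deposited 1 table of TPM values for 4 samples, with 18169 rows. Per the labels, reads were aligned to mm10 with Bowtie2 2.2.3 and quantified with RSEM 1.2.20, from stranded libraries of polyadenylated RNA. The annotation and the strand setting are not given in the sources used here. TPM adds to about the same total in each sample (1000015 to 1000031), so the share of the abundant rows moves all remaining values, and read depth is unknown.

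Columns were assigned to samples by genotype and number in their names. From the deposited TPM, log2(TPM + 1) was computed, and the 12576 rows that averaged 1 TPM or more were kept. Genotypes were compared over all of them by two-sided moderated tests without covariates (limma 3.58.1 under R 4.3.3, eBayes with its variance trend) and Benjamini-Hochberg adjustment. Count models were not used, because TPM is not a count. Standard errors are those of limma. Gene lists were described by counts and medians without a test, and 196 names occurred in several rows, none of them a member. The members and lists were chosen with earlier results of these data known. All 36 members, Chd5, Atf4, Asns and, of each pathway list, the 2 genes with the largest positive and the 2 with the largest negative difference could be named. Genes beyond these were picked with their values in view, and a few items are not reported here.

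GC content, length and coordinates came from GENCODE M21 (GRCm38), which gave values for 93.0% of the rows tested. Trends on GC and length were removed by loess (span 0.5) on the deviation of each sample from the row mean. Other alternatives were pseudocounts of 0.1 and 5, quantile normalization, a minimum of 10 TPM or none, rescaling with the 20 most abundant rows set aside, median-of-ratios scaling, eBayes without trend, the replicate number as a block, and leaving out each sample. Transcripts were compared by BLAST and promoters searched for 6 motifs. The fit was tested on simulated data. Python 3.11.15, pandas 2.3.3, numpy 2.4.6, scipy 1.17.1 and matplotlib 3.10.9 were used.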

Additional observations from a re-analysis of the deposited data

How the results depend on the processing

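With all 4 samples kept, none of the 36 synthetase genes passed an adjusted p of 0.05 by limma under any alternative. At most 7 of all rows tested did so in these fits. The alternatives gave 345 values for the 22 genes whose samples did not overlap, of which 328 kept their direction and 17 reversed. Most of the 345 could not reverse, so the 328 are no measure of robustness. These genes were chosen for samples without overlap, so another pseudocount or a sample left out cannot change the sign. Another minimum, the replicate block alone, its crossed form and eBayes without trend leave the log2 fold change as it was. Only the other scalings and the trend removal, with or without the block, could reverse a direction. The log2 fold change of Lars was -0.12 and that of Iars2 -0.23 and of Hars2 -0.077 after median-of-ratios scaling. Quantile normalization gave -0.073 for Hars2, -0.23 for Wars2 and -0.16 for Cars2, and rescaling without the 20 most abundant rows -0.093 for Iars2. With GC and length trends removed, with or without the replicate block, Cars was at -0.063, Aars -0.029, Iars2 -0.078, Sars2 -0.11 and Aars2 -0.028.

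Cytosolic genes higher at an unadjusted p under 0.05, 4 as reported, numbered 1 after quantile normalization, after median-of-ratios scaling and after removal of GC and length trends, 2 after rescaling, 0 with the replicate block added to the trend removal, and 0 to 8 with a sample left out. Cytosolic genes lower at that threshold, 0 as reported, numbered 1 after median-of-ratios scaling and 1 after rescaling, and 0 to 5 with a sample left out. Mitochondrial genes higher, 6 as reported, numbered 2 at a minimum of 10 TPM, where fewer genes were tested, 1 after quantile normalization, 2 after median-of-ratios scaling, 3 with the replicate block, 0 after removal of GC and length trends, 0 with both, and 0 to 6 with a sample left out. Mitochondrial genes lower, 0 as reported, numbered 1 after quantile normalization, 2 after median-of-ratios scaling and 1 after rescaling, and 0 to 2 with a sample left out.

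Cytosolic genes above without overlap, 8 as reported, numbered 5 after quantile normalization, 5 after median-of-ratios scaling, 3 with trends removed and 8 to 15 with a sample left out. Those below, 1 as reported, numbered 5, 8 and 8 in the same order, 6 after rescaling and 1 to 8 with a sample left out. Mitochondrial genes above, 11 as reported, numbered 6, 7 and 4 in that order, 5 at a minimum of 10 TPM and 11 to 14 with a sample left out. Those below, 2 as reported, numbered 4 under each of the 4 scalings and 2 to 4 with a sample left out. Leaving out a sample drops comparisons from the rule behind these counts, so with a sample left out they could only stay or rise. The 46.3% above and 13.0% below of all rows hold for the deposited scaling with all samples. The shares of all rows under the other settings are not given here. Changes in these counts can therefore not be told apart from a shift of the whole table.

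The cytosolic median moved to -0.051 after median-of-ratios scaling and -0.23 with trends removed, with or without the block, and lay between 0.018 and 0.48 with a sample left out. The mitochondrial median moved to 0.14 at a minimum of 10 TPM, -0.026 after quantile normalization, 0.20 after median-of-ratios scaling and 0.041 with trends removed, with or without the block, and lay between 0.21 and 0.76 with a sample left out. The log2 ratio of summed cytosolic TPM, 0.01 as deposited, was -0.36 after median-of-ratios scaling. That of the mitochondrial sum, 0.98 as deposited, was 0.61 after the same scaling and 0.10 without Lars2.

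After median-of-ratios scaling, quantile normalization, rescaling and trend removal, the median of the scaffold and related enzymes was -0.0092, -0.018, 0.12 and -0.076, that of tRNA processing -0.21, -0.23, -0.082 and -0.15, that of the eIF2 alpha pathway -0.46, -0.30, -0.33 and -0.20, and that of the amino acid transporters 0.14, -0.013, 0.27 and -0.019, the last also 0.74 at a minimum of 10 TPM. The median of the elongation factors was 0.73 after median-of-ratios scaling and 0.38 with trends removed, and that of the ATF4 targets 0.38 after quantile normalization, 0.39 after median-of-ratios scaling and -0.0060 with trends removed. With a sample left out, the medians lay between 0.59 and 1.41 for the elongation factors, -0.041 and 0.21 for tRNA processing, 0.28 and 0.98 for the ATF4 targets, -0.086 and 0.0058 for the eIF2 alpha pathway, and 0.29 and 0.60 for the amino acid transporters. The cause of these shifts was not tested.

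Over all rows, deviations of same-numbered samples had a correlation of -0.15, which with 2 samples a genotype is a single value, and the labels do not say that a number marks a shared litter or day, so the numbers were not taken as pairs. The replicate block moved the unadjusted calls over all rows from 2748 higher and 285 lower to 2111 and 178, and the crossed numbering, added after seeing the data, to 2808 and 284. With 2 samples a genotype and no read numbers, small differences of genes near 1 TPM cannot be resolved.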
